A study of Mus musculus with 6 samples.

Results

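Oligodendrocyte precursors of the old mouse hippocampus were examined in 6 libraries of single-cell RNA made in droplets: 3 Control libraries after air and 3 Sevoflurane libraries after the anaesthetic. The labels state 2% sevoflurane, an inhaled general anaesthetic, for 6 h, and tissue taken 24 h later, in 6 old mice; they give no strain, sex or exact age. Tissue had been digested with collagenase, and the cell suspensions were frozen in liquid nitrogen and thawed before library preparation. That each library came from its own mouse is not stated in so many words, so a p-value here speaks of the spread among libraries, which may be technical. Precursors were chosen by a marker gate: at least 40 counts per 10000 unique molecular identifiers (UMIs) for Lhfpl3, Vcan, Pdgfra and Cspg4 together, at least 2 UMIs of Lhfpl3, at least 2 UMIs of the other three together, and under 3 UMIs of Gpr17, Enpp6, Bmp4 and 9630013A20Rik, which mark precursors that have begun to differentiate. The gate selected 1086 of 50287 kept barcodes, with 169, 194 and 133 in Control 1 to 3 and 225, 188 and 177 in Sevoflurane 1 to 3.

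Oligodendrocyte precursors are the dividing glia that give rise to myelinating oligodendrocytes, in the adult brain as well as in development. They carry the receptor for platelet-derived growth factor (Pdgfra) and the proteoglycan NG2 (Cspg4), receive synapses from neurons through glutamate and GABA receptors, and hold a set of transcription factors that keep them undifferentiated or commit them to making myelin. On commitment they pass through a short Gpr17 stage, switch off Pdgfra and Cspg4, and switch on myelin genes.

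The gate genes describe the members and support no result, since their values selected the cells. Lhfpl3, a tetraspan membrane protein, was found in 100% of members of every library with a median of 15.0 to 23.5 UMIs. Vcan, the matrix proteoglycan versican, was found in 94.1% to 99.4%, Pdgfra in 85.1% to 91.0% and Cspg4 in 64.4% to 75.1%. The mean level over libraries was 101 times that of all other kept barcodes for Pdgfra and 60.9 times for Lhfpl3, in CPM (counts scaled to a common total of UMIs). Of the committed genes, Gpr17 had a UMI in 12.8% to 29.3% of members and Bmp4 in 0.565% to 4.00%. The median member held 75.05 gate counts per 10000 UMIs, 40 members lay between 40 and 44, and 33 otherwise passing barcodes lay between 36 and 40. In all, 364 barcodes failed only on the limit of 40, and 61 were removed by the committed genes.

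Genes of the lineage that the gate did not use were checked next, in CPM of the summed UMIs without further scaling factors. Sox10, the transcription factor of the whole oligodendrocyte lineage, stood at 245 to 345 CPM in members against 9.31 to 16.2 in all other barcodes, and at 131 to 216 in mature oligodendrocytes gated on 5 myelin genes. The precursor-rich Ptprz1, a receptor phosphatase that binds chondroitin sulfate, stood at 1859 to 2383 CPM in members against 66.3 to 108 in mature oligodendrocytes. Tnr, the matrix protein tenascin-R, stood at 3790 to 4787 against 75.6 to 120 CPM. RNA of other cell types was present as well. The 14 neuron markers summed to 5690 to 6639 CPM in members and to 19514 to 20409 in the remaining barcodes, with no marker at 0 over the members, and the 10 mature oligodendrocyte markers summed to 708 to 1163 CPM. The 11 astrocyte markers summed to 983 to 1360 CPM, the 10 microglia markers to 119 to 167 and the 10 fibroblast markers, a cell type that also uses Pdgfra, to 35.2 to 63.8. The groups overlapped in each of these sums. The sums did not overlap for 2 other types: 10 mural cell markers gave 41.9 to 45.8 CPM in Control members and 27.6 to 37.2 in Sevoflurane members, and 10 choroid plexus markers 177 to 778 and 15.6 to 20.8. Their part in the results was not tested.

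Members' UMIs summed to 501544 to 852266 per library, and the deposited libraries held 54426522 to 70741809 UMIs. The median member held 3819 ± 249.8 UMIs in Control and 3537 ± 417 in Sevoflurane (SD, n = 3, two-sided exact permutation p = 0.4, smallest possible 0.1). No barcode was shared by members of different libraries, and no pair of libraries shared more than 0.333% of barcodes. Sevoflurane 1 stood apart in sex-linked RNA: its members had 1924 CPM of Xist against 0 to 1.17 in the other 5 libraries, 1.25 CPM of Ddx3y against 48.8 to 81.8, and 0 CPM of Eif2s3y against 129 to 177. By these genes it came from female tissue and the others from male tissue, so results are also given without it.

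The share of precursors was close in both groups. It was 2.40%, 2.23% and 1.79% of kept barcodes in Control 1 to 3 and 2.31%, 2.18% and 2.03% in Sevoflurane 1 to 3. The Sevoflurane range lay inside the Control range, with means of 2.14% ± 0.316 and 2.17% ± 0.140 (SD, n = 3, two-sided exact permutation p = 0.9). The sign of this small difference rested on the gate and on single libraries: the share was 0.991% ± 0.219 and 0.785% ± 0.263 with a limit of 80 counts per 10000 UMIs (exact permutation p = 0.3), and the log2 ratio went from 0.02 to -0.09 without Control 3 and to -0.02 without Sevoflurane 1.

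Committed precursors, gated only on at least 3 UMIs of the 4 committed genes, numbered 27.2, 34.5 and 40.6 per 100 precursors in Control. In Sevoflurane they numbered 24.0, 28.7 and 33.3. These barcodes also held 9823 to 15872 CPM of the 14 neuron markers, against 5690 to 6639 in members. In Control 3 they held 1129 CPM of mural, 1468 of fibroblast and 1500 of choroid plexus markers, the highest of all libraries. The part of other cell types in these counts was not tested. The ranges overlapped, and the means were 34.1 ± 6.70 and 28.7 ± 4.67 (SD, n = 3, exact permutation p = 0.4). Cells in division were few. At least 1 UMI of Mki67, a proliferation antigen, or Top2a, the topoisomerase of dividing cells, was found in 9, 9 and 4 members of Control 1 to 3 and in 7, 1 and 8 of Sevoflurane 1 to 3, in all 22 of 496 against 16 of 590. The same RNAs were found in 14 of 5734 mature oligodendrocytes, cells that do not divide, at a lower median depth of 2103 to 2527 UMIs. A transcript of any of 28 cell cycle genes was found in 20.1%, 27.8% and 19.5% of Control members and 26.7%, 20.7% and 33.9% of Sevoflurane members (exact permutation p = 0.4). In mature oligodendrocytes the shares were 12.8% ± 0.742 and 15.1% ± 1.04 (SD, n = 3), with no overlap between the groups (exact permutation p = 0.1, the smallest possible). The source of such UMIs in these cells was not tested. After thinning each member to 1500 UMIs, which left out 22 members, the shares were 12.6% ± 2.09 and 13.8% ± 2.45 (exact permutation p = 0.6). Thinned mature oligodendrocytes had 7.91% and 10.0%, again with no overlap (exact permutation p = 0.1).

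**Figure D1:**
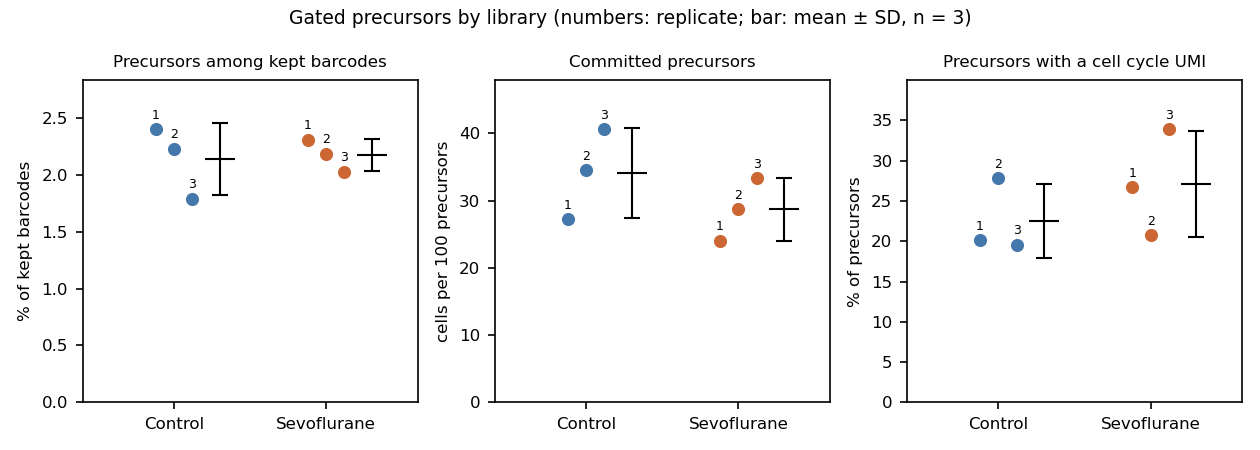
Gated precursors as % of kept barcodes (left), committed precursors per 100 precursors (middle) and % of precursors with a UMI of 28 cell cycle genes (right) in each library, with the replicate number at each point and the mean ± SD of 3 libraries as a bar. The 3 Sevoflurane shares on the left, 2.03% to 2.31%, lie within the Control range of 1.79% to 2.40%, and the groups overlap in all panels.

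Gene expression was compared on UMI counts summed over the members of each library. The RNAs that fell after sevoflurane included Sox6, a transcription factor, Nxph1, a neurexin ligand, Pde4b and Ppp2r2b, parts of cyclic AMP and phosphatase signalling, the channel gene Kcnq5 and the glutamate receptor gene Grm3; few RNAs rose. Of 9477 genes tested with the quasi-likelihood test of edgeR, 52 (0.549%) passed a Benjamini-Hochberg adjusted p of 0.05, of which 47 (0.496%) were lower and 5 (0.0528%) higher in Sevoflurane. In all 52 the libraries of the groups did not overlap; over all genes tested, 836 (8.82%) lay lower and 621 (6.55%) higher in every Sevoflurane library than in every Control library. The median log2 fold change of all genes was 0.01, 0.01 with the size factors of DESeq2 and 0.10 with library totals alone. Of the 47 lower genes, 36 were at least as high in members as in the remaining barcodes. So were most of the 9477 genes tested, with 5137 at 1 to 2 times that level. A further 682 stood at 2 to 5 times, 180 at 5 to 10 times and 144 at 10 times or more. Many calls were lost with 1 library left out. Of the 52 calls, the fits without Control 1, 2 or 3 kept 30, 13 and 21. The fits without Sevoflurane 1, 2 or 3 kept 17, 28 and 24. Such fits have fewer libraries and less power, so a lost call does not by itself show that 1 library set the difference. Of the 52, 11 stayed in none of these fits and 12 in each. Those 12 were Sox6, Nxph1, Grm3, Kcnq5, Pde4b, Pde7b, Plcl1, Plppr1, Ppp2r2b, Reln, Utrn and Ttr. With the stricter gate Grm3 and Plcl1 (edgeR adjusted p = 0.137) lost the call as well, and Reln did not pass the filter on low counts.

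Among 26 tested precursor genes outside the gate, 3 fell and none rose, and 13 (50%) lay lower and 1 higher without overlap. Of these 26 genes, 10 are at least 200 kb long. Of all genes tested, 8.82% lay lower and 6.55% higher without overlap, and of those at least 200 kb long 32.4% lay lower. These background shares apply to such counts in every list below. The lists were chosen with earlier results of these data known, so their counts and medians are descriptions and not independent tests. Sox6, a transcription factor that holds precursors back from differentiating, stood at 1675, 1721 and 1837 CPM in Control 1 to 3 and at 1264, 1011 and 1041 in Sevoflurane 1 to 3. Its gene overlaps the much less abundant Gm45025 on the opposite strand. All 3 Sevoflurane libraries lay below the lowest Control library, a log2 fold change of -0.66 ± 0.11 (SE, edgeR adjusted p = 0.00236; 9.69e-04 to 0.0403 with 1 library left out). Nxph1, the neurexin ligand neurexophilin 1, stood at 2571, 3349 and 2898 CPM in Control and 2061, 1554 and 1787 in Sevoflurane. It fell by 0.71 ± 0.11 on the log2 scale (edgeR adjusted p = 0.00236). Luzp2, a leucine zipper protein rich in these cells, was at 1833, 2149 and 2126 CPM against 1457, 1511 and 1435, a log2 fold change of -0.47 ± 0.10 (edgeR adjusted p = 0.0273, and 0.0172 to 0.154 with 1 library left out, lost without Control 2, Control 3, Sevoflurane 1 or Sevoflurane 3). The list had a median log2 fold change of -0.30, against 0.01 for all genes tested.

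Other abundant precursor genes did not pass the test but had no overlap between the groups. Tnr stood at 4447, 5038 and 5105 CPM in Control and 4235, 3864 and 3821 in Sevoflurane (log2 -0.29 ± 0.09, edgeR adjusted p = 0.176). Xylt1, the enzyme that starts chondroitin sulfate chains, had a log2 value of -0.32 ± 0.09 (edgeR adjusted p = 0.145), and Ptprz1 one of -0.37 ± 0.09 (edgeR adjusted p = 0.0703). These 3 and Nxph1 are the most abundant of the list, with mean levels of 2165 to 4418 CPM. The gate genes give a level with no test. Pdgfra stood at 696, 715 and 668 CPM in Control and 756, 619 and 659 in Sevoflurane, and Vcan at 1341, 1283 and 1235 against 1245, 1309.6 and 1251. Cspg4 overlapped as well, at 325, 327 and 398 CPM against 328, 334 and 311. Lhfpl3, which the gate requires, was lower in every Sevoflurane library, at 5869, 6650 and 5823 CPM against 5521, 4625 and 5034.

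Among 25 tested transcription factors of the lineage, Sox6, Zfp536 and St18 fell, none rose, and 11 lay lower without overlap. Zfp536, a zinc finger repressor of differentiation genes, was even in Control at 367, 365 and 364 CPM and lower in Sevoflurane at 254, 236 and 239. Its log2 fold change was -0.59 ± 0.12 (edgeR adjusted p = 0.0222), and the adjusted p was 0.0593 to 0.105 in every fit with 1 library left out. St18, a factor of maturing oligodendrocytes, was at 205, 96.2 and 72.3 CPM in Control and 62.5, 61.5 and 44.6 in Sevoflurane. The high value of Control 1 set the size of the difference: the log2 fold change was -1.18 ± 0.27 with all libraries (edgeR adjusted p = 0.0446) and -0.62 without Control 1 (edgeR adjusted p = 0.319), and the call was lost as well without any one Sevoflurane library (0.0889 without Sevoflurane 1). St18 was higher in the remaining barcodes, at 237 CPM in Control and 197 in Sevoflurane, than in members, and Control 1 also had the most members that met the limits for mature oligodendrocytes, 5 of 13. With members holding markers of other classes left out, an alternative chosen after the data were seen, the log2 fold change of St18 was -0.81 and the call was lost (edgeR adjusted p = 0.261).

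The factors that define the lineage gave smaller or less even differences. Sox10 was at 258, 361 and 368 CPM in Control and 250.0, 274 and 306 in Sevoflurane (log2 -0.25 ± 0.14, edgeR adjusted p = 0.571), and the ranges overlapped. Olig2, needed for the fate itself, was at 59.9, 88.6 and 117 CPM against 86.7, 57.1 and 36.8, with overlap. The most abundant factor, Tcf4, a helix-loop-helix partner of Olig2, did not overlap at 1612, 1829 and 1649.8 CPM against 1344, 1273 and 1195, with a log2 fold change of -0.42 ± 0.10 just short of the threshold (edgeR adjusted p = 0.0539). The list's median was -0.36. In the list of brakes on differentiation, with genes of Notch, Wnt, BMP and Hedgehog signalling, 1 of 19 tested genes fell, which was Sox6, and the median was -0.20 (-0.12 without Sevoflurane 2 and -0.088 without Sevoflurane 3).

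Genes that mark the next steps of the lineage did not pass the test. Of 25 tested genes of differentiation and myelin none was called, 3 lay lower without overlap, and the median log2 fold change was -0.24. Itpr2, a calcium release channel of newly committed cells, stood at 489, 592 and 527 CPM in Control and 497, 426 and 503 in Sevoflurane (log2 -0.17 ± 0.12, edgeR adjusted p = 0.661). Bcas1, a protein of myelinating cells, had a log2 value of -0.26 ± 0.13 (edgeR adjusted p = 0.501). The major myelin RNA Mbp was at 281, 173 and 121 CPM against 126, 120.0 and 139, again with the highest value in Control 1 (log2 -0.60 ± 0.20, edgeR adjusted p = 0.207). Its log2 value was -0.23 without Control 1 and -0.20 without members holding markers of other classes. The list median was -0.06 with the stricter gate. Of 28 cell cycle genes 5 passed the filter on low counts, and none was called.

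**Figure D2:**
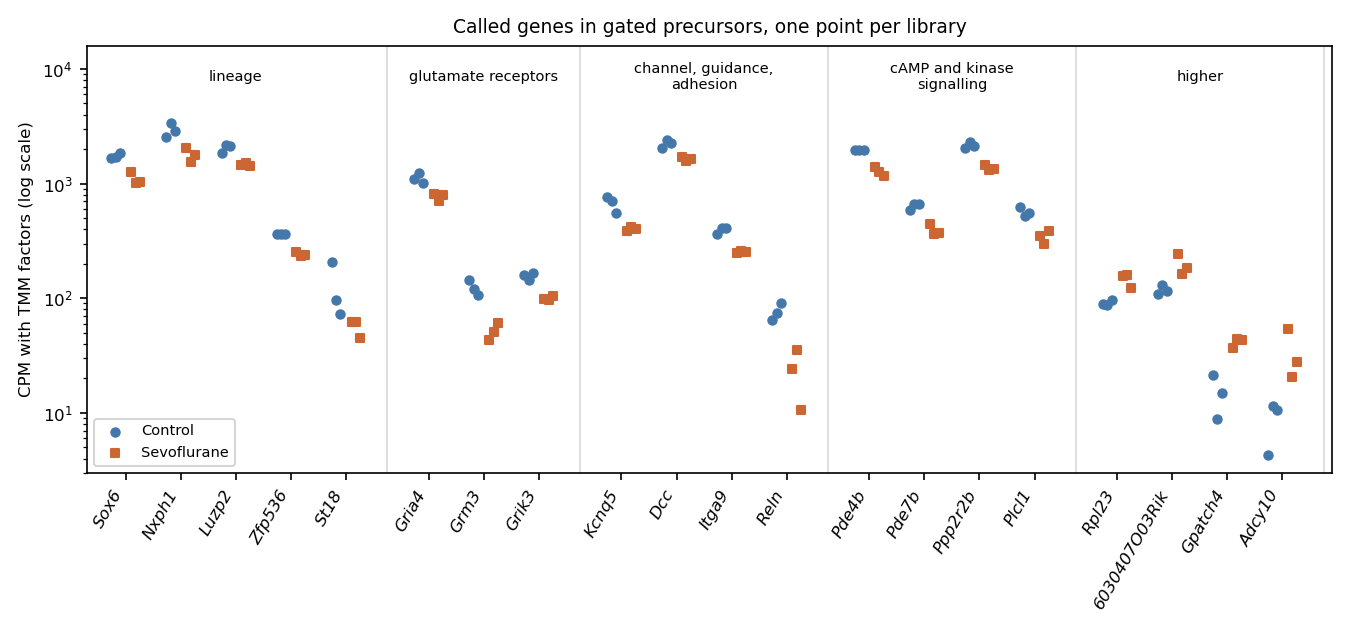
Level of 20 called genes in each library, in CPM with TMM factors on a log axis; circles are Control and squares Sevoflurane libraries. The first 16 genes lie lower and the last 4 higher in all 3 Sevoflurane libraries, with no overlap, as for Sox6 (1675 to 1837 against 1011 to 1264 CPM).

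Among 21 tested glutamate receptor genes, 3 fell, none rose, 8 lay lower and 2 higher without overlap, and the median was -0.18 (-0.091 without Sevoflurane 2). Precursors receive glutamate mainly through AMPA receptors, and Gria4, an AMPA subunit, was at 1087, 1237 and 1001 CPM in Control and 818, 707 and 799 in Sevoflurane, with no overlap. Its log2 fold change was -0.52 ± 0.11 (edgeR adjusted p = 0.0306, and 0.0489 to 0.211 with 1 library left out, kept only without Control 3). Grm3, a metabotropic receptor coupled to inhibition of adenylyl cyclase, was at 144, 122 and 106 CPM against 43.4, 51.2 and 60.4. Its log2 fold change of -1.27 ± 0.19 (edgeR adjusted p = 0.00193) held in every fit with 1 library left out, at 0.0037 to 0.0146, but was lost with the stricter gate of 80 counts per 10000 UMIs, where the log2 value was -0.73 (edgeR adjusted p = 0.46). Grm3 RNA was more abundant in the remaining barcodes, at 227 CPM in Control and 150.4 in Sevoflurane, and the part of RNA from other cells in the members' droplets was not tested.

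Grik3, a kainate receptor subunit, was at 158, 146 and 166 CPM in Control and 98.2, 96.6 and 104 in Sevoflurane, a log2 fold change of -0.65 ± 0.15 (edgeR adjusted p = 0.047). That call was lost in every fit with 1 library left out, at 0.0734 to 0.152. The abundant AMPA subunit Gria2 stood at 1462 to 1767 CPM over the 6 libraries, with overlap between the groups. The kainate subunit Grik2 had a log2 value of -0.27 ± 0.10 (edgeR adjusted p = 0.31). Of 19 tested GABA receptor genes and other channels on which anaesthetics act, none was called, 3 lay lower without overlap and the median was -0.09 (0.0066 without Control 1 and -0.039 without Sevoflurane 1).

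Of 39 tested genes of voltage-gated channels 1 fell, 10 lay lower and 1 higher without overlap, and the median was -0.18. Kcnq5, a subunit of the potassium channel that carries the M current, was at 762, 702 and 557 CPM in Control and 383, 416 and 399 in Sevoflurane. It fell by 0.76 ± 0.12 on the log2 scale (edgeR adjusted p = 0.00236), in each leave-out fit as well (0.00393 to 0.0245). Kcnq5 was higher in the remaining barcodes, at 1322 and 1156 CPM, and the part of RNA from other cells was not tested. Kcnd2, the most abundant channel gene of members and the pore of an A-type potassium current, was at 4427, 5135 and 4762 CPM against 4019, 3465 and 3941, with no overlap and a log2 value of -0.33 ± 0.09 that did not pass (edgeR adjusted p = 0.124).

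Of 50 tested synaptic adhesion genes 41 had a negative log2 fold change, 1 fell (Nxph1) and the median was -0.15. Without overlap, 18 (36%) lay lower and 0 higher. Of these 50 genes, 32 are at least 200 kb long, and 32.4% of all tested genes of that length lay lower without overlap. Of 40 tested genes of guidance and motility 2 fell, and 10 lay lower and 3 higher without overlap; the median was -0.17, or -0.07 without Control 1. Dcc, the netrin receptor, was at 2036, 2383 and 2239 CPM against 1719, 1571 and 1628 (log2 -0.44 ± 0.10, edgeR adjusted p = 0.0364, and 0.0409 to 0.225 with 1 library left out, kept only without Control 1). Itga9, the alpha chain of an integrin that binds tenascin-C, was at 365, 411 and 410.3 CPM against 246, 259 and 251. It fell by 0.65 ± 0.12 on the log2 scale (edgeR adjusted p = 0.01), with the call lost without Control 2, Control 3 or Sevoflurane 1 (up to 0.0895). Of 32 tested genes of the extracellular matrix and its sulfation none was called, 8 lay lower without overlap and the median was -0.17. Of 35 tested genes of growth factor signalling none was called and 6 lay lower without overlap; Erbb4, a neuregulin receptor, was the most abundant, at 2356 to 3472 CPM with overlap.

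Outside the lists, the lower genes with the largest changes included Reln, Utrn and Plppr1. Reln, the secreted glycoprotein reelin, was at 64.2, 74.7 and 91.4 CPM in Control and 24.2, 35.1 and 10.5 in Sevoflurane, a log2 fold change of -1.71 ± 0.29 (edgeR adjusted p = 0.00355), and the call was lost with high doublet scores removed (0.0722). It was also lower in the remaining barcodes of Sevoflurane (109.7 against 79.0 CPM), which hold the neurons that secrete it; their part in the result was not tested. Utrn, the dystrophin relative utrophin, was at 240, 277 and 232 CPM against 139, 132 and 147 (log2 -0.85 ± 0.14, edgeR adjusted p = 0.00236). Plppr1, a membrane protein that shapes cell protrusions, was at 348, 399.97 and 410.3 CPM against 247, 218 and 198 (log2 -0.80 ± 0.13, edgeR adjusted p = 0.00236). Both separated the groups by more than the range within either group.

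Dnah2 (log2 -1.37), Ypel2 (-1.13) and Dpf3 (-0.77) were lower by the same test and lost the call in at least 5 of the 6 leave-out fits. Ttr, the transthyretin of the choroid plexus, had the largest change: 247, 169.6 and 797 CPM in Control and 1.28, 4.39 and 2.63 in Sevoflurane (log2 -7.08 ± 0.64, edgeR adjusted p = 8.55e-07). The remaining barcodes had 251 CPM in Control and 2.44 in Sevoflurane. Kif20b, a kinesin of dividing cells that fell outside the naming rule, was at 19.97, 29.1 and 27.6 CPM against 3.83, 2.93 and 3.94 (log2 -2.77 ± 0.44, edgeR adjusted p = 0.00236, and 0.0634 without Control 2). Kif20b passed the filter on low counts only through the Control libraries, so its difference rests on few Sevoflurane UMIs.

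A group of lower genes of intracellular signalling was named after their values were seen, because they kept the call in every leave-out fit. Pde4b, a phosphodiesterase that degrades cyclic AMP, was at 1962, 1949 and 1979 CPM in Control and 1395, 1254 and 1163 in Sevoflurane (log2 -0.63 ± 0.10, edgeR adjusted p = 0.00236). Pde7b, a second enzyme of this kind, was at 584, 661 and 661 CPM against 441, 363 and 374 (log2 -0.69 ± 0.12, edgeR adjusted p = 0.00375). Ppp2r2b, a regulatory subunit of protein phosphatase 2A, was at 2039, 2321 and 2147 CPM against 1439, 1301 and 1335, and Plcl1, a phospholipase C-like protein without catalytic activity, at 628, 524 and 555 against 352, 298 and 382. Their log2 fold changes were -0.68 ± 0.10 (edgeR adjusted p = 0.00193) and -0.72 ± 0.12 (edgeR adjusted p = 0.00375). All 4 were lower in each Sevoflurane library than in any Control library.

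All 5 higher genes lost the call without Control 2 and without Control 3. Rpl23, a ribosomal protein, was at 88.5, 87.3 and 95.7 CPM in Control and 157, 161 and 122 in Sevoflurane (log2 0.70 ± 0.16, edgeR adjusted p = 0.047, 0.145 without Sevoflurane 1); ribosomal protein genes have near-identical copies, so its counts are uncertain. The non-coding 6030407O03Rik, at 83.9 times the level of the remaining barcodes, was at 108, 130.4 and 115 CPM against 244, 164 and 185 (log2 0.74 ± 0.16, edgeR adjusted p = 0.0339, 0.163 without Sevoflurane 1). Gpatch4, a nucleolar protein, rose from 15.0 ± 6.27 to 41.4 ± 3.83 CPM (SD, n = 3, edgeR adjusted p = 0.0335), and Adcy10, the soluble adenylyl cyclase, from 8.77 ± 3.90 to 33.9 ± 17.4 CPM (edgeR adjusted p = 0.0339, 0.203 without Sevoflurane 1). Ttf2, a transcription termination factor outside the naming rule, was at 0 to 4.28 CPM in Control and 14.6 to 16.6 in Sevoflurane. Adcy10 was at 4.28, 11.4 and 10.6 CPM in Control. Ttf2 and Adcy10 passed the filter on low counts only through the Sevoflurane libraries, so their differences rest on few Control UMIs. The calls of Gpatch4 and Ttf2 stayed in 1 of 6 leave-out fits each, with adjusted p up to 0.262 and 0.263, and Rpl23, 6030407O03Rik and Adcy10 also lost theirs without Control 1.

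Among lists with a positive median, few or no genes were called. All 17 tested genes of cholesterol synthesis had a positive log2 fold change with a median of 0.47, against 0.01 for all genes; none was called and 6 lay higher without overlap. Hmgcs1, an early enzyme of the pathway, was at 37.1, 38.0 and 34.0 CPM in Control and 52.3, 51.2 and 48.6 in Sevoflurane, with a log2 value of 0.47 ± 0.23 (edgeR adjusted p = 0.463). Chosen after its values were seen, Cyp51, the lanosterol demethylase, was at 17.1, 26.6 and 23.4 CPM against 48.5, 60.0 and 35.4 (log2 1.08 ± 0.28, edgeR adjusted p = 0.0788). The median of the list was 0.32 to 0.50 with 1 library left out.

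Of 50 tested ribosomal protein genes 49 had a positive log2 fold change, 11 lay higher and 0 lower without overlap, 1 was called (Rpl23) and the median was 0.33, or 0.20 without Sevoflurane 2. The 36 tested nuclear genes of oxidative phosphorylation had a median of 0.29, with none called and 4 higher and 1 lower without overlap; it was 0.16 with the trend with gene span removed, and 0.065 without Sevoflurane 2. The 12 tested mitochondrially encoded genes had a median of 0.23 that went to -0.07 when a trend with gene span was removed, to 0.007 without Control 2 and to -0.045 without Sevoflurane 2, and was up to 0.50 without Control 1; the 9 heat shock genes had a median of 0.33 that was 0.15 without Sevoflurane 2. The 18 tested genes of the unfolded protein response had a median of -0.26 (-0.16 without Control 2), with none called and 6 lower without overlap; chosen after its values were seen, Pdia3, a disulfide isomerase of the endoplasmic reticulum, was at 101, 94.9 and 104 CPM against 66.3, 60.0 and 45.9 (log2 -0.79 ± 0.19, edgeR adjusted p = 0.0516). Genes that respond to glucocorticoids had a median of 0.04 over 15 tested, immediate-early genes 0.08 over 10, p53 targets -0.11 over 8, interferon and antigen presentation 0.21 over 7 (0.016 without Sevoflurane 1) and glycolysis and fasting metabolism 0.12 over 18, none of them with a called gene. Between them, these 5 medians ranged from -0.18 to 0.42 with 1 library left out.

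**Figure D3:**
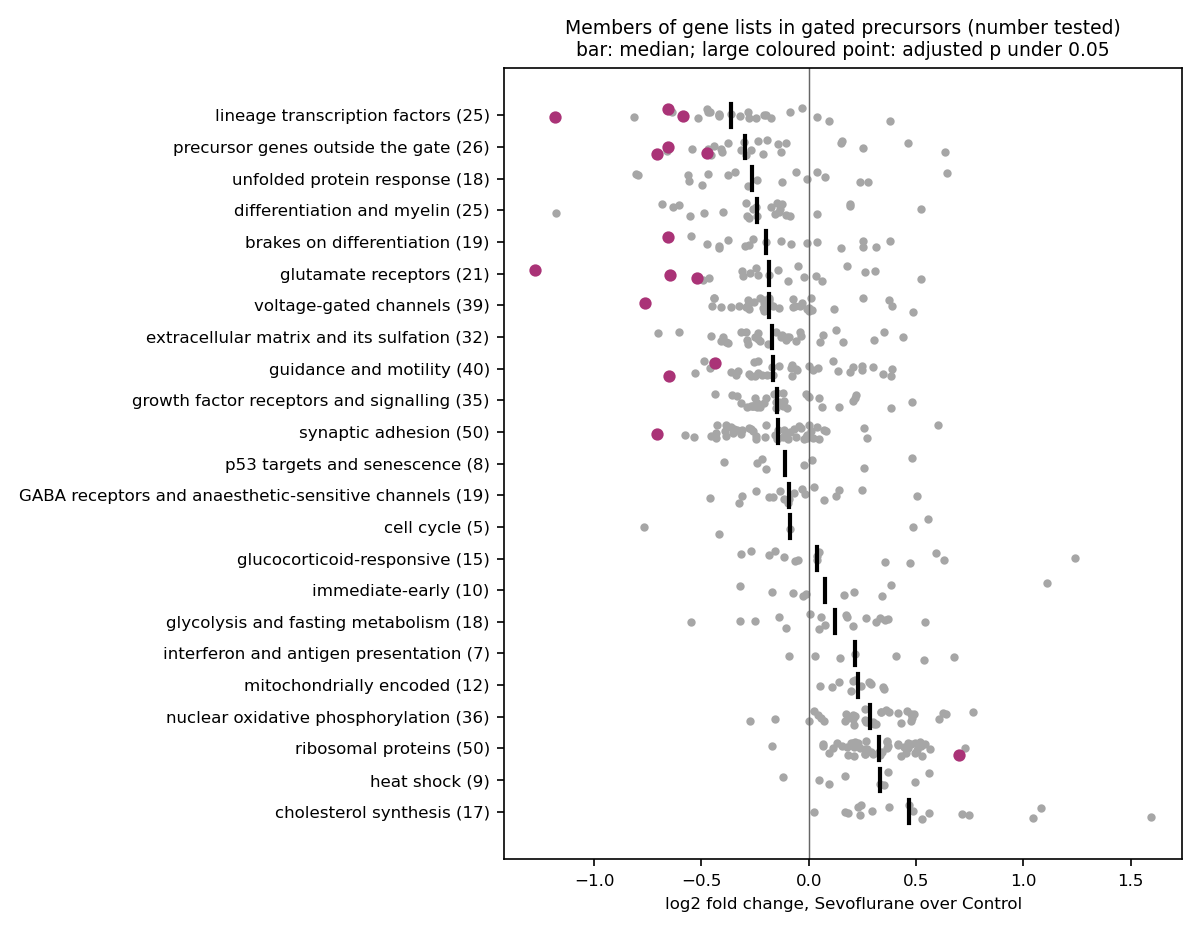
Log2 fold change (Sevoflurane over Control) of each tested gene of 23 lists in precursors, with the list median as a black bar and called genes as large coloured points. Medians run from -0.36 for lineage transcription factors to 0.47 for cholesterol synthesis, and every coloured point but Rpl23 (0.70) lies below 0; genes on several lists appear in each.

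The lower genes were long genes. Gene span, the length of the gene record in the GENCODE M21 annotation, had a median of 334 kb among the 47 lower genes and 35.4 kb among all genes tested. Of 868 tested genes of at least 200 kb, 37 (4.26%) were called lower and 281 (32.4%) lay lower without overlap. Genes of that length made up 16 of 21 glutamate receptor, 21 of 39 voltage-gated channel and 32 of 50 synaptic adhesion genes tested. They also made up 20 of 40 genes of guidance and motility and 15 of 32 of the extracellular matrix. The median log2 fold change fell from 0.19 in genes under 10 kb to 0.07 at 10 to 30 kb, -0.01 at 30 to 100 kb, -0.09 at 100 to 200 kb, -0.17 at 200 to 400 kb and -0.19 above. Longer genes were also more abundant, with a median level of 26.1 CPM in the shortest and 424 CPM in the longest class.

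When a smooth trend with gene span was removed from each library, the median of genes of at least 200 kb went from -0.17 to -0.01 and 21 of the 52 calls stayed, in a total of 24. Sox6 then had a log2 fold change of -0.48 (edgeR adjusted p = 0.0355), Nxph1 -0.56 (0.0195), Grm3 -1.14 (0.00673), Kcnq5 -0.58 (0.0301), Pde4b -0.45 (0.04) and Ppp2r2b -0.51 (0.0153). Luzp2 (0.271), Zfp536 (0.126), St18 (0.135), Gria4 (0.156), Grik3 (0.167), Dcc (0.465) and Itga9 (0.0787) lost the call, with the adjusted p in brackets. The list medians moved as well: precursor genes outside the gate went from -0.30 to -0.23, lineage factors from -0.36 to -0.30, glutamate receptors from -0.18 to -0.03, synaptic adhesion from -0.15 to -0.05 and ribosomal proteins from 0.33 to 0.13, and cholesterol synthesis from 0.47 to 0.40.

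**Figure D4:**
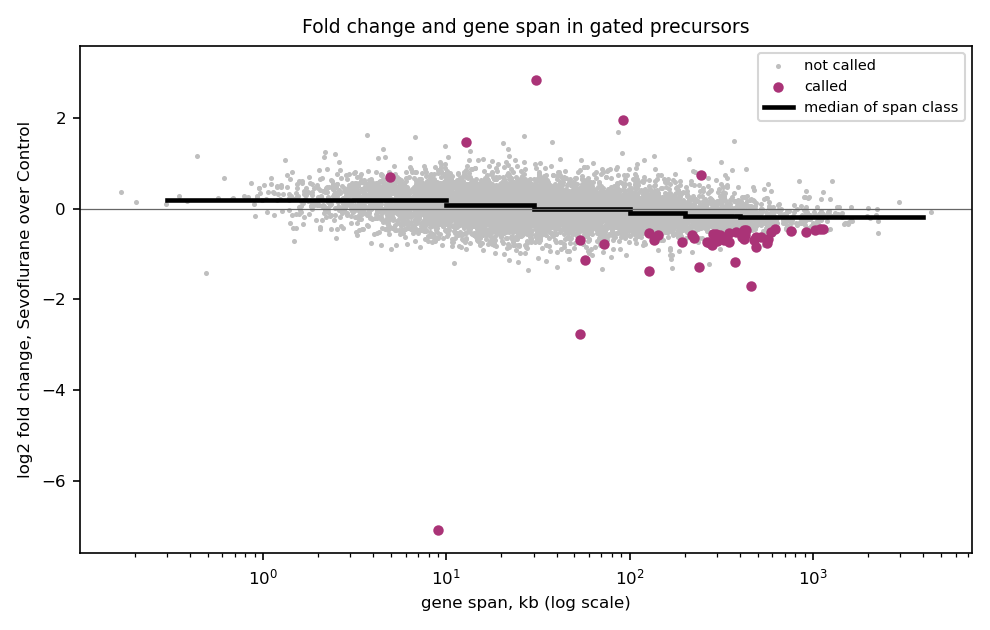
Log2 fold change (Sevoflurane over Control) against gene span in kb on a log axis for 9477 tested genes; called genes are large coloured points and black bars are the medians of 6 span classes. The medians step down from 0.19 to -0.19, and most called genes lie at the right, below 0.

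Genes were also grouped by their level in members over the remaining barcodes, a grouping made after the data had been seen. The 144 genes at least 10 times higher in members had a median log2 fold change of -0.16, with 22.9% lower and 4.17% higher without overlap and 7 called lower. They include the gate genes Pdgfra, Vcan, Cspg4, Lhfpl3 and Gpr17, whose values selected the members. Lhfpl3 is among those lower without overlap. The 5137 genes at 1 to 2 times had a median of 0.04, with 6.599% lower and 6.97% higher. Among genes under 100 kb the same classes had medians of -0.13 (101 genes, 15.8% lower without overlap) and 0.07 (4498 genes, 4.18% lower without overlap). Of these 101 genes, 2 were called lower, and the gate genes Pdgfra, Vcan, Cspg4 and Gpr17 are among the 101.

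The same contrast in mature oligodendrocytes (5734 cells) and astrocytes (1616 cells), gated on their own markers from the same 6 libraries, placed the precursor values beside other glia. The log2 fold change of Sox6 was -0.66 ± 0.11 in precursors, -0.55 ± 0.26 in mature oligodendrocytes and -0.46 ± 0.13 in astrocytes. Pde4b gave -0.63 ± 0.10, -0.77 ± 0.13 and -0.32 ± 0.15, Kcnq5 -0.76 ± 0.12, -0.53 ± 0.14 and -0.55 ± 0.24, and Grm3 -1.27 ± 0.19, -0.60 ± 0.13 and -1.67 ± 0.21 in the same order. For these 4 the interaction of class and group, which tests the difference of the effect itself, did not pass (edgeR adjusted p = 0.377 to 0.96). Not every called lower gene had negative values in all 3 classes. Ypel2 gave -1.13 ± 0.25, -0.06 ± 0.12 and 0.01 ± 0.34, and Grik3 -0.65 ± 0.15, 0.02 ± 0.24 and -0.28 ± 0.35. Their interactions did not pass either (edgeR adjusted p = 0.129 to 0.844).

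The interaction called 6 of 11878 genes (0.0505%) between precursors and mature oligodendrocytes and 12 of 10762 (0.112%) between precursors and astrocytes. Adam11, a membrane protein of the ADAM family without protease activity, was at 57.1, 58.2 and 48.9 CPM in Control precursors and 47.2, 60.0 and 65.6 in Sevoflurane, whereas mature oligodendrocytes went from 126, 176 and 129 to 36.2, 43.9 and 35.5. The interaction was 1.91 ± 0.23 on the log2 scale (edgeR adjusted p = 1.25e-04) and was called in each leave-out fit. Plcl1, chosen after its values were seen, was the one called lower gene of precursors with an interaction call: astrocytes stood at 820, 731 and 703 CPM in Control and 863, 763 and 753 in Sevoflurane. Its interaction was -0.85 ± 0.15 (edgeR adjusted p = 0.0124, lost without Control 1, Control 3 or Sevoflurane 2).

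**Figure D5:**
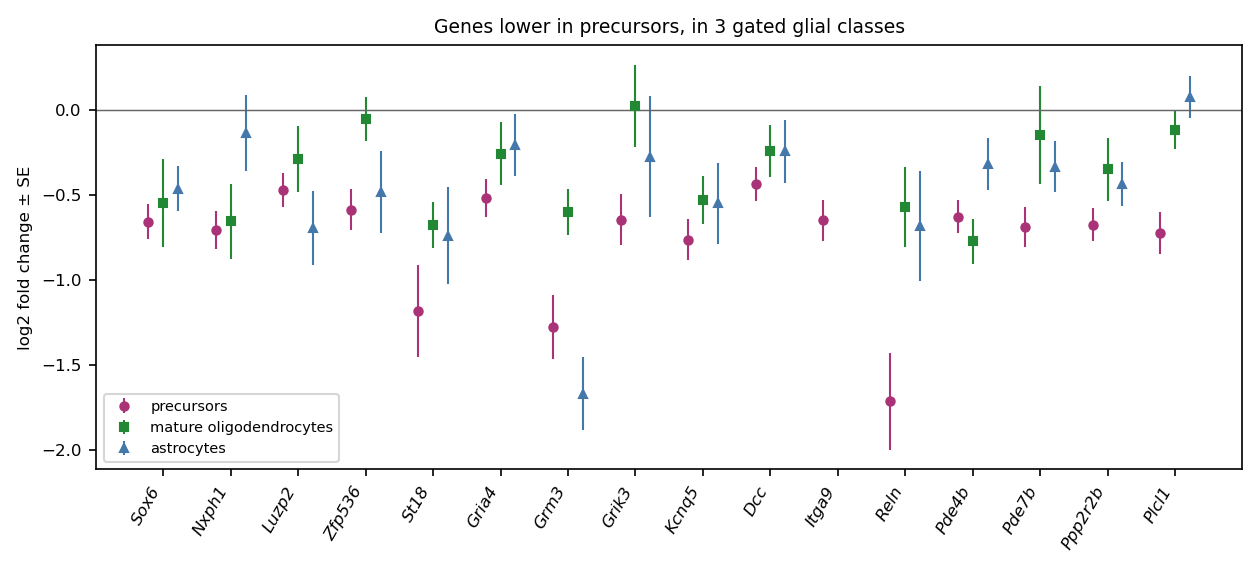
Log2 fold change (Sevoflurane over Control) ± SE of 16 genes called lower in precursors, in precursors (circles), mature oligodendrocytes (squares) and astrocytes (triangles); Itga9 did not pass the filter in the other classes. Sox6, Kcnq5 and Pde4b lie below 0 in all 3 classes, and Plcl1 lies near 0 in both others (-0.12 and 0.07).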

How the data were processed

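Each deposited matrix holds the UMI count of every gene in every barcode. Per the file headers, the authors' counter was Cell Ranger 6.1.1; the submitters' processing notes also list CASAVA 1.8 and Seurat. The sources used here give no build, annotation or strand setting, so gene spans come from GENCODE M21 by gene ID, which matched 100% of tested genes. A barcode was kept if it had 500 UMIs and 300 genes or more and no more than 20% of its UMIs from mitochondrial genes. Members and gene lists were chosen with earlier results of these data known. Counts were summed per library and class, not corrected for free RNA, and doublets were kept, with an alternative that removed the highest Scrublet scores (scanpy 1.11.5) at 0.8% per 1000 barcodes; 50 members had such scores. The tests were edgeR 4.0.16 (R 4.3.3: quasi-likelihood, TMM, filterByExpr, Benjamini-Hochberg over all genes tested, threshold 0.05), checked on simulated data, with DESeq2 1.42.0 as an alternative, and exact permutation tests for single values. Fold changes are Sevoflurane over Control, with the SE derived from the F statistic. Mature oligodendrocytes, astrocytes and committed precursors were gated by fixed marker limits.

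Named genes were the gate genes, up to 10 called genes in each direction with the largest change among those of at least 20 CPM, every called gene on a list, up to 3 of the most abundant tested genes of a list, and up to 5 called genes in each direction of each interaction; genes outside this rule are said to be so in the text. Library depth limits low genes: members gave 501544 to 852266 UMIs per library. A few genes that this rule names are not reported here.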

Additional observations from a re-analysis of the deposited data

Results flagged for a closer look

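Of the 18 genes called by the interaction of class and group in edgeR, where the Sevoflurane difference of precursors was not that of another glial class, 10 are described by the rule of up to 5 in each direction with the largest size and at least 20 CPM in precursors (values on the log2 scale, precursor effect minus the other effect, Benjamini-Hochberg adjusted over all genes). Against mature oligodendrocytes these were Adam11, at 1.91 ± 0.23, Gab2, a signalling adaptor, at -0.91 ± 0.17, Stxbp6, a regulator of vesicle fusion, at 0.88 ± 0.16, and the non-coding A330015K06Rik at -1.31 ± 0.25. Gab2 stood at 389, 361 and 347 CPM in Control precursors and 319, 250.2 and 318 in Sevoflurane, and at 119, 123 and 131 against 163, 203 and 180 in mature oligodendrocytes. Stxbp6 stood at 156, 187 and 183 against 184, 154 and 161 CPM in precursors and at 538, 687 and 507 against 316, 287 and 260.3 in mature oligodendrocytes. A330015K06Rik stood at 51.4, 78.5 and 63.8 against 25.5, 39.5 and 31.5 CPM in precursors, with overlap between the groups in mature oligodendrocytes. The Adam11 call stayed in all 6 fits with 1 library left out. Gab2 and Stxbp6 stayed only without Sevoflurane 1, and A330015K06Rik was lost without Control 2, Control 3, Sevoflurane 2 or Sevoflurane 3.

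Against astrocytes the genes were Plpp4, a lipid phosphatase, at -1.72 ± 0.27, Spon1, a matrix protein, at -1.27 ± 0.22, Trp53inp1, a p53 target, at -1.81 ± 0.34, Irs2, an adaptor of the insulin receptor, at -1.38 ± 0.27, Fam214a at -1.17 ± 0.23, and Unc5d, a netrin receptor, at 1.30 ± 0.26. Plpp4 stood at 310, 368 and 351 CPM in Control precursors and 284, 315 and 327 in Sevoflurane, and at 47.8, 18.6 and 28.9 against 71.3, 81.4 and 120.1 in astrocytes. Unc5d stood at 57.1, 60.8 and 55.3 against 38.3, 87.8 and 52.5 CPM in precursors and at 88.4, 94.6 and 86.7 against 19.6, 46.2 and 40.6 in astrocytes. In precursors the log2 fold change was -0.17 for Spon1, -0.39 for Trp53inp1, -0.25 for Irs2 and -0.39 for Fam214a, none of them called. In astrocytes it was 1.14, 1.37, 1.09 and 0.71 in the same order. The Plpp4 call was lost only without Control 3. Spon1 and Fam214a stayed in 2 of the 6 leave-out fits and Trp53inp1, Irs2 and Unc5d in 1. Prkca, a protein kinase C chosen after its values were seen, had an interaction of -1.06 ± 0.16 that stayed in all 6. Its log2 fold change was -0.37 in precursors and 0.61 in astrocytes.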

How the results depend on the processing

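The count of called genes in precursors, 52, was 50 with the size factors of DESeq2 in edgeR, 49 without high doublet scores and 47 in an alternative chosen after seeing the data, without members holding other class markers. It was 113 with DESeq2, where 8819 adjusted p-values were NA, 136 with no filter on low counts, 24 with the gene span trend removed, 21 with the stricter gate and 14 to 39 with 1 library left out, lowest without Control 2 and highest without Sevoflurane 3. The interaction against mature oligodendrocytes, 6 genes, gave 2 with DESeq2, 52 with no filter and 1 to 24 with 1 library left out (24 without Sevoflurane 1); that against astrocytes, 12 genes, gave 3, 44 and 1 to 17 (17 without Sevoflurane 1). The log2 ratio of the precursor share, 0.02, was -0.34 with the stricter gate and -0.091 to 0.11 with 1 library left out, with a negative sign also without Sevoflurane 1 (-0.02).

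Same-numbered libraries did not deviate together (r = -0.111 to -0.0556 over 7836 genes, against -0.0182 to 0.0819 for other pairs), and 0 of the libraries correlated best with their own number. These values gave no sign that the numbers pair the samples, but with groups of 3 they cannot exclude it. With the replicate number as a block, 34 genes were called in precursors, 32 of them among the 52, and the interactions gave 1 and 2 genes; the log2 ratio of the share was 0.02 in the paired analysis. Sums of 133 to 225 cells per library limit genes of low count, and groups of 3 cannot give an exact permutation p under 0.1.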
